A study of Homo sapiens with 18 samples.

Results

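The genes described here are those of the mitochondrial ribosome that carry an MRPL or MRPS name: every protein-coding gene of the count tables whose symbol is MRPL or MRPS followed by a number and at most 1 letter. The rule found 78 genes among the 58735 counted, 49 named for the large subunit (MRPL) and 29 for the small (MRPS). They were followed in A549 and H358, established human lung adenocarcinoma cell lines. Both lines carried either a lentiviral short hairpin RNA against RAD21 (shRAD21) or the matching vector with no target (shNC), and A549 was also made to overexpress RAD21 (RAD21OE) beside cells with an empty vector (EV). RAD21 is the kleisin subunit of cohesin, the ring complex that holds sister chromatids together and shapes chromatin loops. Each of the 6 groups held 3 libraries of RNA from whole cultures, 18 in all, labelled as triplicates with nothing said of separate cultures. The p-values therefore rest on library-to-library spread that could be purely technical. Neither the hairpin's sequence nor whether the cells are 1 clone is given in the sources used here.

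Mitochondria keep their own ribosome, which translates the few proteins encoded by mitochondrial DNA, all of them subunits of the respiratory chain and ATP synthase. Its RNAs come from mitochondrial DNA, but all of its proteins are encoded in the nucleus, made in the cytosol and imported. The large subunit joins amino acids and the small subunit reads the messenger RNA. Some proteins descend from bacterial ribosomal proteins and others were added in the mitochondrial lineage. By their names in the universal scheme for ribosomal proteins, 45 members are classed here as bacterial homologs and 31 as specific to mitochondria. This follows naming and not descent: MRPS18A and MRPS18B are in the second class, and their paralog MRPS18C is in the first. Names do not always give the place, since MRPS30 and MRPS18A sit in the large subunit, and MRPS36 is now known as a subunit of the 2-oxoglutarate dehydrogenase complex.

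The members lay on 21 chromosomes, with at most 8 on any of them. A start of another protein-coding gene on the opposite strand within 1000 bases was found for 29 of them (37.2%), against 13.0% of all protein-coding genes. Of the 78 members, 69 had a promoter in the RefSeq table (build GRCh38.p14), taken here at a gene's most upstream start, 250 bases before to 50 after it. The 7 letters CCGGAAG, the core that ETS-family factors recognise, were found on either strand in 29 of those 69 promoters (42.0%), against 14.2% of 15843 protein-coding promoters. For AAGATGGC, the core of the YY1 motif, the shares were 29% (20 of 69) and 3.86%, and 59.4% of member promoters held at least 1 of the pair, against 17.1%. The ETS and YY1 cores can share their AAG letters, and all motifs but the next were searched on both strands. TATAAA, searched on the gene's strand only, was in 1.45% of member promoters and 6.94% of all. Shares were close in the subunits: the ETS core was in 40.5% of MRPL and 44.4% of MRPS promoters, and the YY1 core in 28.6% and 29.6%. TGCGCA, part of the NRF1 motif, was in 20.3% against 10.8%, and CACGTG, the E-box, in 10.1% against 8.82%. Median GC content of the windows was 60.3% for members and 62.7% for protein-coding genes. The share of promoters with a match does not show that a factor binds there.

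Printed next are 30 bases around the match nearest the start, 5′ to 3′ on the gene's strand, for the members with an ETS core that rose most in the RAD21-overexpressing cells. Capitals mark that core, read as CTTCCGG where it lies on the other strand.
MRPL38 (chr17:75905074-75905103, minus strand): tccaacgggcaCTTCCGGagccgggcgtct
MRPL52 (chr14:22829871-22829900, plus strand): ggccacgcctaCTTCCGGctaccccggcta
MRPL58 (chr17:75012651-75012680, plus strand): ggaagcgcccgCCGGAAGcagtcgcaagac
MRPL53 (chr2:74472662-74472691, minus strand): ctgcacgagttCTTCCGGggcggaggtcac
MRPL27 (chr17:50373174-50373203, minus strand): acttttcgagaCCGGAAGtgagtgatcgaa
MRPS26 (chr20:3046004-3046033, plus strand): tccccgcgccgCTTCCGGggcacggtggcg
MRPL48 (chr11:73787800-73787829, plus strand): aatttcagaagCTTCCGGaactaaaatgat
MRPL54 (chr19:3762650-3762679, plus strand): gccactgacgtCTTCCGGaaacgtgcactt

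The match began close to the start in most of these, at -5 in MRPL52, -8 in MRPL58 and MRPL27, 0 in MRPL53 (the first transcribed base) and -21 in MRPL54, but at -208 in MRPL38. The next 4 windows mark AAGATGGC in capitals, for the members with this motif that rose most (MRPS7 gained 0.36, the same as MRPS18A, and is not shown).
MRPL38 (chr17:75904860-75904889, minus strand): aggccggagggAAGATGGCggcgccctggt
MRPL52 (chr14:22829812-22829841, plus strand): aacccagattcAAGATGGCgacttcctgct
MRPL45 (chr17:38297170-38297199, plus strand): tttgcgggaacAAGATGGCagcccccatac
MRPS18A (chr6:43687764-43687793, minus strand): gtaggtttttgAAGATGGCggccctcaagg

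In MRPL38, MRPL45 and MRPS18A this match began 6, 13 and 9 bases after the start, and all 4 lie on the gene's strand. Among members with a promoter in the table, the ETS core was in 15 of the 27 that rose under overexpression (55.6%) and 14 of the 41 others tested (34.1%), and the YY1 core in 37% and 22%.

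Libraries held 15155077 to 19277568 counts in the knockdown table and 13024640 to 14276335 in the overexpression table, and members took 0.308 to 0.386% of them. RAD21 followed the labels: CPM (library-size-scaled counts, with TMM factors) were 129, 132 and 101 in A549 shRAD21 against 253 to 257 in shNC, 379 to 433 against 569 to 603 in H358, and 1306 to 1520 in RAD21OE against 194 to 209 in EV. A single library stood apart from its replicates in A549 shRAD21 and in A549 RAD21OE, replicate 3 of each. Over the members, its median absolute log2 difference from the other replicates was 0.22 and 0.26 in shRAD21 and 0.22 and 0.19 in RAD21OE, and at most 0.13 for any other pair. All 6 epithelial markers reached 1 CPM in every group. Of 4 lung markers NKX2-1, SFTPB and SFTPC stayed under 1 CPM in A549, and SFTPB and SFTPC in H358. The labelled lung origin is thus not seen in these surfactant genes. In H358, however, NKX2-1 averaged 122 CPM in shNC and 155 in shRAD21, and group means of NAPSA were 1.00 to 2.15 CPM over both lines. Of the 6 epithelial markers, 5 were higher in the A549 knockdown, and KRT7 was lower (1461 against 2545 CPM on average), the sum of the 6 reaching 12549 to 15795 CPM against 9567 to 10075. Under overexpression the sum was 12840 to 16599 CPM against 11116 to 11405, with KRT8 and KRT18 higher and CDH1 lower. The part of these shifts in the results was not tested.

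Per kilobase of exon, levels in the control cells differed widely between members (RPKM, CPM per kilobase, a level and not a difference). MRPS34, which steadies the small subunit's RNA, was the highest at 109 ± 1.03 RPKM in A549 shNC (SD, n = 3), followed by MRPS12, a protein of the decoding centre, at 79.5 ± 3.89, and MRPS26 at 65.9 ± 3.46. At the low end stood MRPL46 at 1.10 ± 0.0864, MRPS18C at 1.71 ± 0.0944 and MRPL38 at 1.94 ± 0.0695, a span of 98.6-fold. In H358 shNC the order of the ends was much the same, with MRPS34 at 75.0 ± 1.17 and MRPL46 at 1.00 ± 0.114, but MRPS21 (49.98 ± 1.36) and MRPL3 (42.1 ± 0.921), a protein near the peptidyl transferase centre, came next. The same 3 genes were lowest in EV, where MRPL38 had 1.03 ± 0.0489 RPKM. The median was 15.6 RPKM for MRPL and 12.6 for MRPS genes in A549 shNC, and 12.1 and 10.6 in H358 shNC. MRPS24 had 0 to 10 counts per library and under the filter of both tables. As counted, 23.2% of its exon sequence lies under another gene of the same strand. The tables also list 75 pseudogenes with an MRP name, and 10 members have over 10% of their exon under another gene of the same strand and 16 under a gene of the other strand. Since the sources used here do not state whether counting used strand, reads of those members and their neighbours may be split or mixed.

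**Figure D1:**
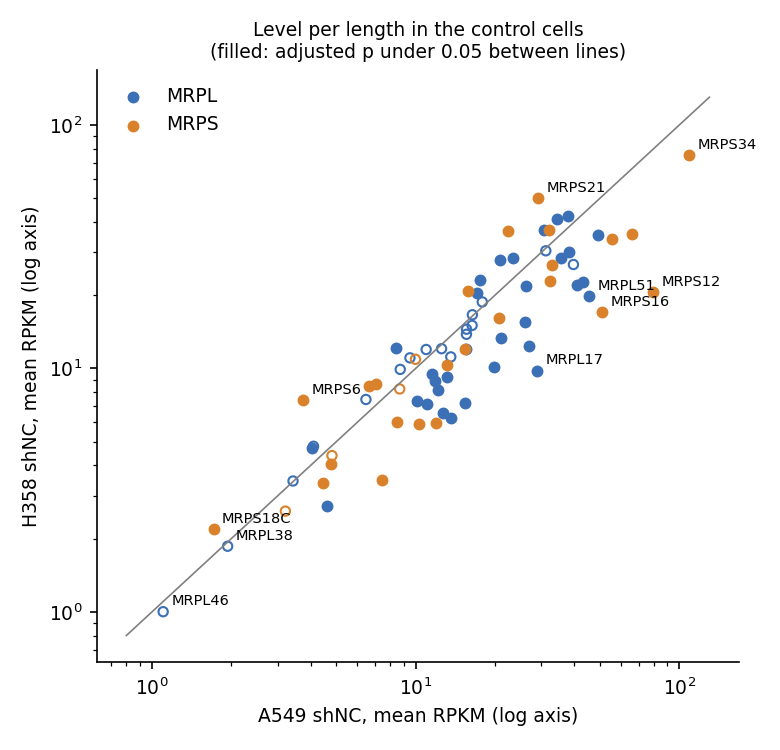
Mean RPKM of the 77 tested members in A549 shNC (x) and H358 shNC (y), both on log axes, with MRPL in blue and MRPS in orange; filled points passed an adjusted p under 0.05 between the lines. MRPS34 was highest in both lines, and MRPS12, MRPS16, MRPL17 and MRPL51 lie furthest under the line of equal levels.

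Between the control cells of the lines, 39 members were lower in H358 than in A549 and 17 higher, of 77 tested (edgeR's quasi-likelihood test, adjusted p under 0.05). Over all genes tested the shares were 36.8% lower and 39.1% higher. MRPS12 had 172, 178 and 162 CPM in A549 and 45.1, 43.2 and 44.4 in H358, a log2 difference of -1.95 ± 0.12 (SE, adjusted p = 2.2e-11). Next were MRPS16 (-1.58 ± 0.07), MRPL17 (-1.56 ± 0.10), MRPL51 (-1.21 ± 0.16) and MRPL10, the base of the stalk that recruits translation factors (-1.12 ± 0.08). The largest rises were those of MRPS6 (0.98 ± 0.13), MRPS21 (0.78 ± 0.09), MRPS10 (0.72 ± 0.09), MRPL13 (0.52 ± 0.10) and MRPL9 (0.42 ± 0.08). Both mitochondrial rRNAs were lower in H358 as well, MT-RNR1 of the small subunit by a log2 difference of -1.74 ± 0.11 and MT-RNR2 of the large by -2.04 ± 0.10. Scaling by library totals alone moved the median of all genes from 0.05 to 0.27 and gave 25 members higher and 24 lower, beside 46.8% and 29.9% of all genes, so only differences relative to that shift are given. With it, the 10 members named kept their direction and their call.

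Overexpression of RAD21 in A549 went with more calls among members than either knockdown. Of 77 members 30 were higher and 1 lower, against 14.1% higher and 13.7% lower among the 15462 genes tested. By name 22 of 49 MRPL genes (44.9%) and 8 of 28 MRPS genes (28.6%) rose. The median log2 fold change was 0.26 for MRPL and 0.20 for MRPS, against -0.01 for all genes, and 63 of 77 values were positive. With MRPS30 and MRPS18A counted with the large subunit, where they sit, 23 of 51 and 7 of 25 rose, so the split by place differs little from that by name. The difference between the subunits was not tested. Of members classed by name as bacterial homologs 16 of 44 rose, and of those classed as mitochondria-specific 14 of 31, with medians of 0.24 and 0.23. All 3 RAD21OE libraries lay above the EV mean, with medians over MRPL genes of 0.25, 0.20 and 0.38 and over MRPS genes of 0.19, 0.16 and 0.18. Summed over members, RAD21OE libraries held 3839, 3746 and 4013 CPM and EV libraries 3409, 3180 and 3427, with no overlap. In RNA of whole cultures, a change in the mix of cells and a change of RNA per cell cannot be told apart.

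**Figure D2:**
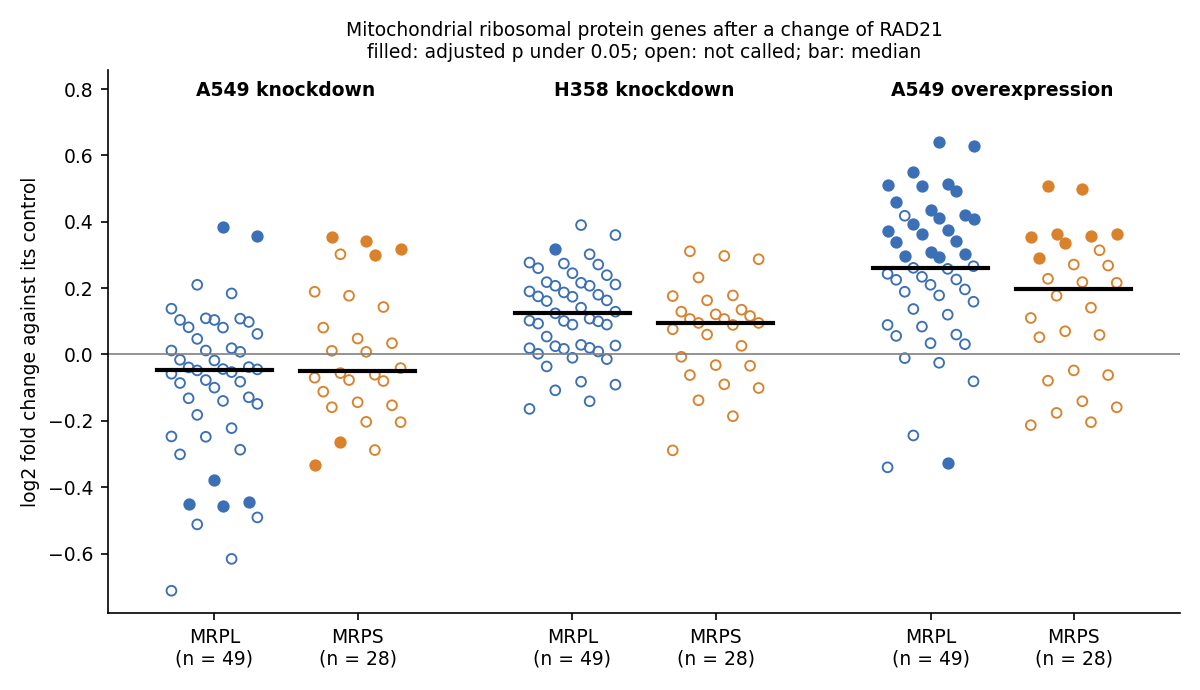
Log2 fold change of each tested member against its control (y) in the 3 RAD21 comparisons, split by name; filled points passed an adjusted p under 0.05, and black bars are medians. Under overexpression most points lie above 0 (medians 0.26 and 0.20), and in the A549 knockdown filled points lie on both sides.

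MRPL52 had 46.1, 40.4 and 45.9 CPM in RAD21OE and 28.5, 27.0 and 30.2 in EV. Every overexpressing library was above every control, and the log2 fold change was 0.63 ± 0.10 (adjusted p = 0.000852). MRPL58 is a peptidyl-tRNA hydrolase within the large subunit that can rescue stalled ribosomes. Its libraries held 49.7, 49.9 and 56.5 CPM against 35.1, 34.3 and 37.2 (0.55 ± 0.10, adjusted p = 0.0014). MRPL18, a protein of the central protuberance, held 57.1, 64.5 and 62.2 CPM against 44.6, 38.4 and 45.9 (0.51 ± 0.10, adjusted p = 0.00264). For each of these the groups did not overlap. The other members among the 5 largest rises were MRPL38 (0.64 ± 0.20, adjusted p = 0.0286) and MRPL53 (0.51 ± 0.18, adjusted p = 0.045). Both are weakly counted, with means of 5.92 and 5.24 CPM in RAD21OE, and 37.5% and 45.2% of their exon lies under another gene of the same strand. Leaving out libraries kept the call of MRPL38 in 2 of 6 fits and that of MRPL53 in 1 of 6.

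MRPL24, at the exit of the peptide tunnel, had 86.3, 80.2 and 96.8 CPM against 61.2, 59.4 and 66.6 in EV (0.49 ± 0.10, adjusted p = 0.00241). MRPS26 rose from 69.7, 62.3 and 74.3 CPM to 89.0, 90.5 and 114 (0.51 ± 0.11, adjusted p = 0.00456), and MRPS34, the highest per length, from 104, 82.6 and 101 to 110, 110 and 143 (0.34 ± 0.12, adjusted p = 0.0468). In MRPS26 and MRPS34 the third replicate was well above the others. MRPS18A of the large subunit rose by 0.36 ± 0.13 (adjusted p = 0.0478), a call kept in 1 of 6 fits that left out a library and lost with DESeq2 and limma-voom. Its paralogs in the small subunit gave 0.29 ± 0.10 for MRPS18B (adjusted p = 0.0468) and -0.18 ± 0.16 for MRPS18C, which did not pass (adjusted p = 0.434). MRPS30 (0.06 ± 0.10) and MRPS36 (-0.21 ± 0.17) did not pass either. The calls of MRPS34 and MRPS18B were lost without each EV library. Of the members that rose, the gain was from 0.29 in MRPS18B to 0.64 in MRPL38.

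The member that fell was MRPL30, with 28.96, 30.95 and 24.3 CPM in RAD21OE against 35.1, 35.3 and 35.3 in EV (-0.33 ± 0.11, adjusted p = 0.0436). That call was lost without each EV library. Of its exon, 19.5% lies under another gene of the same strand.

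The size of the set depended on the control libraries. Without EV replicate 1, 2 or 3 the number higher was 13, 12 and 14, and the shares among all genes were 7.61%, 7.02% and 8.43%. Without RAD21OE replicate 3 it was 38, beside 17.9% of all genes. The 10 members called in every fit that left out a library were MRPL18, MRPL24, MRPL27, MRPL45, MRPL49, MRPL52, MRPL58, MRPS6, MRPS23 and MRPS26, and they passed in every other setting too.

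**Figure D3:**
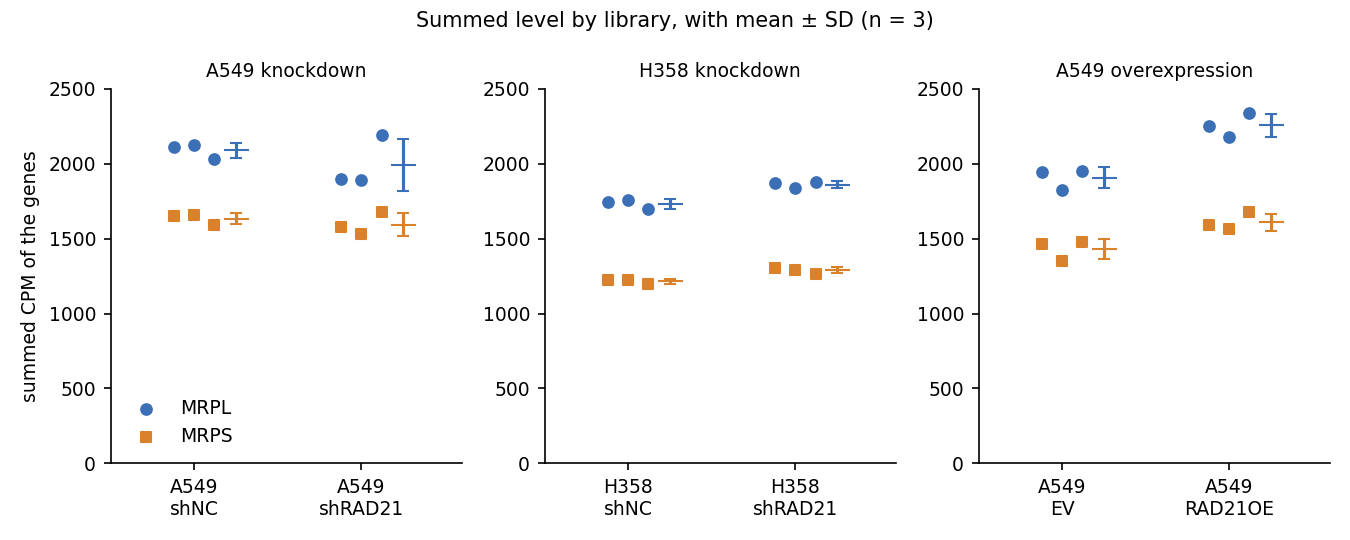
Summed CPM of the MRPL (blue circles) and MRPS genes (orange squares) in each library, with mean ± SD (n = 3); the y axis starts at 0. RAD21OE libraries lie above EV libraries for both subunits, H358 shRAD21 libraries above shNC, and A549 shRAD21 replicate 3 above its 2 replicates.

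Other gene groups of the same machinery were compared by count, beside 14.1% higher and 13.7% lower among all genes tested. Of 5 further mitoribosomal proteins with other names none passed: AURKAIP1 gave 0.38 ± 0.14 (adjusted p = 0.0504), GADD45GIP1 0.31 ± 0.12 (0.0717), CHCHD1 0.10 ± 0.10, DAP3 -0.04 ± 0.09 and PTCD3 -0.17 ± 0.08. Of 29 assembly factors 8 rose and none fell, among them MTERF3 (0.62 ± 0.11, adjusted p = 0.00151) and DHX30, an RNA helicase of mitochondrial RNA granules (0.51 ± 0.09, adjusted p = 0.00116). Of 15 translation factors 3 rose, including the initiation factor MTIF2 (0.45 ± 0.10) and TACO1 (0.28 ± 0.09), and of 20 mitochondrial aminoacyl-tRNA synthetases AARS2 (0.45 ± 0.13) and VARS2 (0.35 ± 0.12) rose and RARS2 fell (-0.49 ± 0.13). Both mitochondrial rRNAs rose: MT-RNR1 had 2832, 2560 and 2596 CPM against 908, 1081 and 1037 (1.40 ± 0.08, adjusted p = 3.07e-07), and MT-RNR2 gained 0.55 ± 0.07 (adjusted p = 0.000169). Cytosolic ribosomal protein genes gave 5 higher and 1 lower of 78, with a median of 0.04, and nuclear genes of the respiratory complexes 5 higher and 2 lower of 78, with a median of 0.06. No test compared these groups with the mitoribosomal proteins.

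Members that share a start region with another gene were examined as pairs. Of 29 members with such a neighbour 15 rose under overexpression, and of the 48 tested without one 15 also rose, with medians of 0.29 and 0.23. In the 28 pairs where both genes were tested, 7 partners rose and 1 fell, beside 14.1% and 13.7% of all genes tested. Both genes rose in 6 pairs, and the signs were the same in 26 (Pearson r = 0.56 and Spearman rho = 0.52 over 28 pairs, which share libraries). MRPL46 and MRPS11 face each other and count as 2 pairs. In some pairs the genes overlap, such as MRPL43 with TWNK, MRPL9 with OAZ3 and MRPL51 with NCAPD2. Of the exon of these members, 36.9%, 33.2% and 31.3% lies over a gene of the other strand. Since it is not stated whether counting used strand, shared reads and a shared change cannot be told apart in overlapping pairs. In the knockdowns the signs were the same in 22 pairs in A549 (r = 0.22, rho = 0.28) and 20 in H358 (r = 0.13, rho = 0.21). Such pairs outside the members were not examined. MRPL52 and SLC7A7, whose starts are 59 bases apart, gave 0.63 ± 0.10 and 0.47 ± 0.09 under overexpression. In the A549 knockdown their signs were opposite, at -0.25 ± 0.13 (adjusted p = 0.194) and 0.90 ± 0.10 (adjusted p = 3.35e-06). The next values are again those under overexpression. MRPL18 and the chaperonin gene TCP1, 63 bases apart, gave 0.51 ± 0.10 and 0.25 ± 0.07, and MRPS34 and EME2, 52 bases apart, 0.34 ± 0.12 and 0.65 ± 0.10. For MRPL54 and APBA3, 965 bases apart, the values were 0.39 ± 0.13 and 0.19 ± 0.15, the partner not passing.

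In the A549 knockdown 6 members were higher and 6 lower of 77, beside 14.4% higher and 10.9% lower among 18939 genes. Without shRAD21 replicate 3 the numbers were 11 and 24, beside 23.2% and 19.9% of all genes. Of MRPL genes 2 rose and 4 fell of 49, and of MRPS genes 4 rose and 2 fell of 28, with medians of -0.05 in both. MRPL30 and MRPL33 rose among MRPL genes, and MRPS9 and MRPS10 of the head of the small subunit, MRPS35 and MRPS30 among MRPS genes. MRPL24, MRPL28, MRPL34, MRPL51, MRPS12 and MRPS16 fell.

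MRPS16 had 114, 115 and 126 CPM in shRAD21 against 141, 145 and 140 in shNC (-0.26 ± 0.07, adjusted p = 0.00718), with no overlap. MRPS35 had 154, 151 and 118 against 115, 108 and 108 (0.35 ± 0.09, adjusted p = 0.00607), also apart. MRPL30 had 48.9, 49.8 and 43.4 against 37.1, 33.7 and 38.3 (0.38 ± 0.10, adjusted p = 0.00599). These 3 passed in every fit that left out a library. MRPL33 (0.36 ± 0.11, adjusted p = 0.0218), MRPS10 (0.34 ± 0.09, 0.0086), MRPS9 (0.32 ± 0.10, 0.022) and MRPS30 (0.30 ± 0.09, 0.0178) were the other rises, each called in 1 to 5 of the 6 such fits.

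Replicate 3 of shRAD21 set the size of the falls. MRPL28 had 45.5 and 46.1 CPM in replicates 1 and 2 but 82.1 in replicate 3, against 76.5, 83.6 and 76.8 in shNC (-0.45 ± 0.16, adjusted p = 0.0425). MRPL51 had 41.5, 41.7 and 72.9 against 75.6, 71.9 and 64.6 (-0.45 ± 0.15, adjusted p = 0.0387), and MRPL34 13.2, 13.9 and 23.2 against 23.6, 21.9 and 23.2 (-0.46 ± 0.16, adjusted p = 0.0399). MRPS12 had 117, 117 and 172 against 172, 178 and 162 (-0.33 ± 0.11, adjusted p = 0.0331), and MRPL24 32.5, 37.1 and 52.5 against 49.4, 55.5 and 53.6 (-0.38 ± 0.13, adjusted p = 0.0345). In these 5 genes replicates 1 and 2 lay under every control and replicate 3 within their range, although RAD21 itself was lowest in replicate 3. Medians over MRPL genes were -0.11, -0.13 and 0.05 in the 3 shRAD21 libraries. The calls of MRPL28 and MRPL34 held in 1 of the 6 fits that left out a library and those of MRPL24, MRPL51 and MRPS12 in 2, and none of the 5 held with only the 6 A549 libraries. Without a library other than replicate 3, 3 to 6 members were called, beside 17.6 to 19.3% of all genes, and with only the 6 A549 libraries 2, beside 19.2%.

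The fold changes of members also followed their GC content in all 3 comparisons. Their difference between the knockdowns did so most closely (r = 0.72, rho = 0.69). Over the 77 members the correlation with the GC content of the longest transcript was r = -0.65 (rho = -0.61) in the A549 knockdown, 0.58 (0.57) in the H358 knockdown and 0.42 (0.47) under overexpression, as descriptions across genes of the same libraries. By library, the rank correlation over members was -0.68 in both shRAD21 replicates 1 and 2 of A549 and 0.30 in replicate 3, and 0.07, 0.30 and 0.65 in the RAD21OE libraries. Over all genes the same correlation was -0.43, -0.42 and 0.10 in A549 shRAD21, against 0.06, 0.07 and -0.11 in shNC. In H358 it was 0.24, 0.14 and 0.12, against 0.23, 0.11 and -0.30 in shNC. RAD21OE libraries gave 0.05, 0.20 and 0.54, against 0.09, -0.175 and 0.12 in EV. In A549 shRAD21 replicates 1 and 2 and in RAD21OE replicate 3 the trend was thus not limited to the members. In H358 the values lay close to or within the range of the controls. Members that fell in the A549 knockdown had a median GC content of 55.1% and those that rose 42.4%. When trends on GC content and exon length were entered as offsets the correlations in the 3 comparisons were 0.02, 0.16 and -0.12. The offsets take out each library's trend over all genes, so smaller correlations were largely built in. With those offsets 8 members rose and 8 fell in the A549 knockdown, beside 17.1% and 12.1% of all genes, and 45 rose and 2 fell under overexpression, where 20.8% of all genes were higher. All 6 falls of the knockdown kept their sign with offsets. MRPS16 (-0.28) and MRPL51 (-0.40) changed little, MRPL28 (-0.20) and MRPL24 (-0.22) still passed at a smaller size, and MRPL34 (-0.30, adjusted p = 0.0542) and MRPS12 (-0.11, adjusted p = 0.124) no longer passed. Of the 6 rises MRPS30 (0.10, adjusted p = 0.25) no longer passed.

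**Figure D4:**
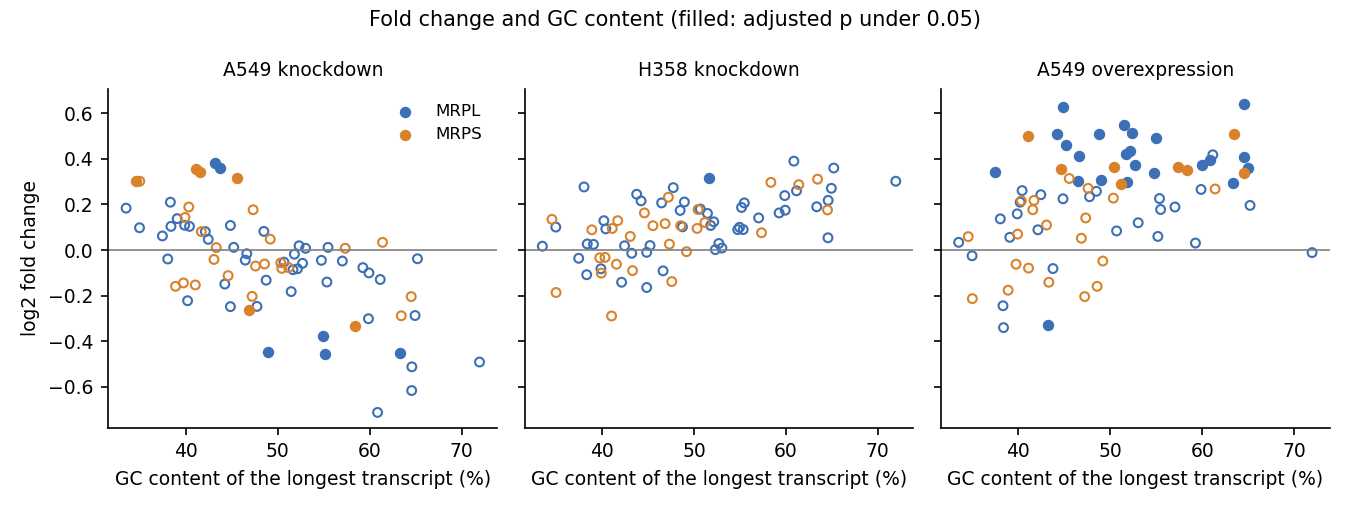
Log2 fold change (y) of each tested member against the GC content of its longest transcript in percent (x), MRPL in blue and MRPS in orange, filled where the adjusted p was under 0.05. The slope is downward in the A549 knockdown (r = -0.65) and upward in the H358 knockdown (0.58) and the overexpression (0.42).

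Among the other genes of the machinery, 2 assembly factors rose and 3 fell in the A549 knockdown, beside 14.4% and 10.9% of all genes tested. RPUSD4, a pseudouridine synthase that acts on the large rRNA, rose by 0.69 ± 0.11 (adjusted p = 0.000128) and FASTKD2 by 0.34 ± 0.09 (0.0133), and RPUSD3 fell by 0.45 ± 0.10 on the log2 scale (0.00277) and MRM1, an rRNA methyltransferase, by 0.57 ± 0.14 (0.00445). Of translation factors the elongation factor GFM1 rose (0.28 ± 0.08, adjusted p = 0.0173), and of the synthetases CARS2 rose (0.42 ± 0.08) and SARS2 fell (-0.87 ± 0.23, adjusted p = 0.00856). SARS2 lies head to head with MRPS12, and under overexpression it gave 0.43 ± 0.16 (adjusted p = 0.0617). MT-RNR1 rose in the knockdown (0.58 ± 0.11, adjusted p = 0.000597) as it did under overexpression, and MT-RNR2 gave 0.10 ± 0.09.

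In H358 a single member passed: MRPL49, with 107, 109 and 110 CPM in shRAD21 against 87.9, 87.9 and 85.9 in shNC (0.32 ± 0.09, adjusted p = 0.037). None was lower by edgeR, DESeq2 or limma-voom. At an unadjusted p under 0.05 in edgeR 12 were higher and 2 lower, and the share of all genes at that threshold was not computed. At the adjusted threshold 3.78% of all genes were higher and 4.62% lower. The call of MRPL49 was lost in each fit that left out a library (adjusted p up to 0.142). Values of the members were nonetheless mostly positive, 60 of 77, with medians of 0.12 for MRPL and 0.10 for MRPS genes against 0.00 for all genes. The summed level was 3179, 3127 and 3141 CPM in shRAD21 and 2967, 2977 and 2895 in shNC, so the groups did not overlap. With GC and length offsets 9 members rose, beside 8.73% of all genes, and with only the 6 H358 libraries 20 rose and 1 fell, beside 12.7% of all genes higher. The synthetase CARS2 (0.39 ± 0.09, adjusted p = 0.00838), the elongation factor TUFM (0.29 ± 0.08, 0.0261) and the assembly factors RPUSD4 (0.50 ± 0.10, 0.00461) and MRM2 (0.33 ± 0.09, 0.0224) rose. TFB1M, the dimethyltransferase of the small rRNA, fell (-0.55 ± 0.15, adjusted p = 0.0252), as did OXA1L, which inserts new proteins into the inner membrane (-0.21 ± 0.06, 0.048). MT-RNR1 and MT-RNR2 gave 0.01 ± 0.11 and -0.02 ± 0.09.

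The 2 knockdowns were compared directly by a contrast of their fold changes. RAD21 was not lowered alike: mean CPM were 121 against 255 in A549 and 413 against 587 in H358. A difference between the lines and one of knockdown depth cannot be told apart here. Of 77 members 8 were more positive in H358 and 2 more negative, against 7.61% and 9.94% of all genes. MRPL54 showed the largest difference, 1.10 ± 0.36 on the log2 scale (adjusted p = 0.0424). It had 5.51, 4.19 and 12.8 CPM in A549 shRAD21 against 11.2 to 13.6 in shNC, and 10.6, 10.98 and 10.7 in H358 shRAD21 against 7.12 to 8.87, so that only 2 of the A549 libraries were low, and neither knockdown passed on its own. MRPL51 (0.66 ± 0.22, adjusted p = 0.0463) and MRPL34 (0.64 ± 0.22, 0.0499) followed, with MRPL30 (-0.40 ± 0.13, 0.0487) and MRPS10 (-0.40 ± 0.12, 0.0313) on the other side. Without A549 shRAD21 replicate 3 the numbers were 32 and 11, beside 17.9% and 19.6% of all genes, and without any other library 2 to 4 members passed, beside 11.4 to 13.6% of all genes. MRPS12 (0.63 ± 0.16, adjusted p = 0.0111) and MRPS16 (0.38 ± 0.10, 0.0117) passed in every one of these fits. Over the 77 members this contrast followed GC content (r = 0.72, and 0.06 with GC and length offsets).

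The A549 knockdown and overexpression used different control libraries, and 5 members passed in both, all with opposite signs. MRPL24, MRPL28, MRPL51 and MRPS12 fell in the knockdown and rose under overexpression, which is 4 of the 6 that fell and 4 of the 30 that rose. MRPL30 rose in the knockdown and fell under overexpression. No member passed with the same sign in both, but of the overexpression calls 30 were higher and only 1 lower. How many of all genes passed in both, and with which signs, was not computed. Over the 77 members the fold changes gave r = -0.45 (rho = -0.46), with opposite signs in 50. After GC and length offsets the values were r = -0.23 (rho = -0.26) and 42 of 77. The H358 knockdown with the overexpression gave r = 0.20 (rho = 0.21), with the same sign in 58 of 77. With offsets r was -0.06 and the sign was the same in 59. Most members thus had the same sign in the H358 knockdown as under overexpression. The A549 and H358 knockdowns gave r = -0.47 (rho = -0.515), with opposite signs in 53, and r = -0.13 with 44 after offsets. The same values over all genes were not computed. For the 5 members called in both A549 comparisons, only the knockdown call of MRPL30 held in every fit that left out a library. Of their overexpression calls only that of MRPL24 did. Under overexpression MRPL28 had 81.4 to 94.7 CPM against 67.9 to 73.5 in EV, MRPL51 106 to 116 against 86.7 to 92.1, and MRPS12 146 to 188 against 110 to 137. MRPL30 is the member whose 3 shRAD21 libraries were all above shNC and whose 3 RAD21OE libraries were all under EV. MRPL49 rose both in the H358 knockdown (0.32 ± 0.09) and under overexpression in A549 (0.42 ± 0.09).

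**Figure D5:**
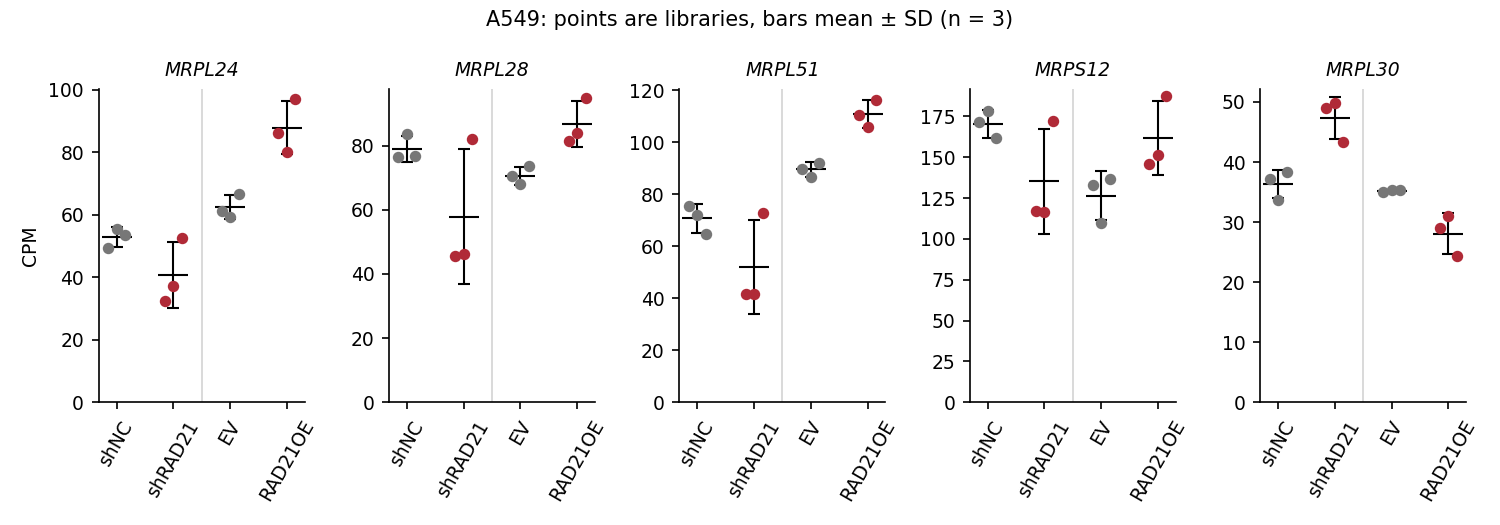
CPM (y, from 0) by library of the 5 members called in both A549 comparisons; points are libraries, grey for controls and red for changed RAD21, and bars are mean ± SD (n = 3). In the first 4 genes a single shRAD21 library sits at the control level, whereas MRPL30 is higher in all 3 shRAD21 libraries and lower in all 3 RAD21OE libraries.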

How the data were processed

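RNA sequencing measured gene expression in 18 libraries of A549 and H358 cells. Libraries were prepared from TRIzol-extracted total RNA with a VAHTS Universal V6 kit, per the labels' protocols. The sources used here do not give whether mRNA was selected or strand kept. The authors deposited 2 tables of raw read counts by gene, with every column matched to a sample (0 unmatched). HISAT2 2.0.5, featureCounts 1.5.0-p3, fastp and the build hg38 appear in the submitters' processing notes. Positions and exon lengths of all 58735 genes equal those of GENCODE release 29. The labels place knockdown and overexpression in separate batches, so each table was fitted alone and levels are not tested across them.

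Groups follow the labels. After filterByExpr and TMM scaling, contrasts between groups were tested two-sided with the quasi-likelihood F-test of edgeR 4.0.16 (R 4.3.3), with Benjamini-Hochberg adjustment over all genes tested and a threshold of 0.05; higher, lower, rose, fell and called refer to it. The 12 knockdown libraries shared 1 fit. SE is the log2 fold change over the root of F. CPM are scaled by TMM, and RPKM are these CPM per kilobase of merged exon. Offsets for GC content and length were lowess trends (span 0.3) of each library's log2 CPM (prior count 2). Simulated counts with 200 altered genes served to check the scripts. Figures used matplotlib 3.10.9.

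Alternatives were DESeq2's size factors and Wald test (1.42.0), limma-voom (3.58.1), library totals alone, no filter beyond a total above 0, a filter of 10 CPM in 3 libraries, the replicate number as a block, GC and length offsets, only the 6 libraries of a line, subunit by place, and each library left out in turn. Library totals alone for the counts of members was added after seeing the data.

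Members, gene lists and tests were chosen with earlier results of these data known. Named are RAD21; in each comparison the called members with the 5 largest rises and falls; up to 3 of each sign in the line difference; members called in at least 2 RAD21 comparisons; the 3 highest and lowest levels per length in controls; MRPS18A, MRPS30, MRPS36 and the untested MRPS24; and up to 2 called members of each list and sign by adjusted p. A gene that this rule names is not reported here. MRPS18B, the members called in every fit and the partners of pairs were named after their values were seen.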

Additional observations from a re-analysis of the deposited data

Results flagged for a closer look

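The knockdowns differed between the cell lines for 10 members, by a contrast of the H358 fold change minus the A549 fold change in 1 edgeR fit of all 12 libraries (quasi-likelihood test, adjusted p under 0.05), beside 17.6% of all genes. More positive in H358 were MRPL54 (1.10 on the log2 scale), MRPL51 (0.66), MRPL34 (0.64), MRPS12 (0.63), MRPL17 (0.52), MRPS25 (0.44), MRPL49 (0.40) and MRPS16 (0.38). More negative were MRPL30 (-0.40) and MRPS10 (-0.40). Without A549 shRAD21 replicate 3 the number was 43, beside 37.5% of all genes. Without any other single library it was between 2 and 4, beside 11.4 to 13.6%. RAD21 was not lowered alike, with mean CPM of 121 against 255 in A549 and 413 against 587 in H358. Line and knockdown depth therefore cannot be told apart. Over the 77 members tested the contrast followed GC content (r = 0.72, and 0.06 with GC and length offsets).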

How the results depend on the processing

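No named member changed sign where it passed in the main analysis or in the alternative. Library totals alone were fitted for single members too, but were left out of this comparison of named members. With that scaling the overexpression calls of MRPS34, MRPS18B and MRPL10, among others, were lost. Values near 0 that did not pass did change sign, such as MRPL53 in H358 (0.002, and -0.116 without shNC replicate 3). Counted by named member, comparison and setting, 2046 entries gave the same call, 206 lost it and 70 gained it. Entries not called in either fit count as the same. Of the calls themselves, 3 of 12 in the A549 knockdown and 10 of 31 under overexpression held in every fit that left out a library. The replicate numbers do not pair the libraries (no correlation of same-numbered deviations above 0.0674), and no cause is drawn from the replicate block, with which 0 members were called in the H358 knockdown (5.93% of all genes) and 3 in the line difference (14.2%). Called members numbered 19 (A549 knockdown), 5 (H358 knockdown) and 17 (line difference) without the filter on low counts, beside 12.8%, 4.86% and 9.51% of all genes. With GC and length offsets they numbered 9 in H358 (17.3% of all genes) and 47 under overexpression (38.5%), and with only the libraries of a line 2 in A549 (19.2%) and 21 in H358 (26%). In H358 library totals alone gave 2 (8.58%) and DESeq2's Wald test 3 (10.6%). Causes of these shifts were not tested. Leaving out a library gave 3 to 35 in the A549 knockdown, 0 to 0 in H358, 2 to 43 in the line difference, 50 to 53 between the control lines and 12 to 39 under overexpression, beside 17.6 to 43%, 3.87 to 4.48%, 11.4 to 37.5%, 71.1 to 72% and 13.7 to 34.8% of all genes. In H358 the count of 0 stands beside 3 by DESeq2's Wald test with all libraries.

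Median log2 fold changes with library totals alone were 0.12 (MRPS, H358 knockdown), -0.036 and -0.105 (MRPL and MRPS, control lines) and 0.16 (MRPS, overexpression). With offsets they were 0.11 (MRPL, line difference), -0.37 and -0.40 (MRPL and MRPS, control lines) and 0.24 (MRPS, overexpression), and by place 0.22 for the small subunit under overexpression. Over fits that left out a library MRPL medians ran from -0.11 to -0.01 (A549 knockdown), 0.09 to 0.16 (H358), 0.12 to 0.28 (line difference), -0.31 to -0.19 (control lines) and 0.21 to 0.31 (overexpression). MRPS medians ran from -0.09 to 0.01 (A549 knockdown), 0.076 to 0.116 (H358), 0.05 to 0.13 (line difference), -0.36 to -0.30 (control lines) and 0.14 to 0.21 (overexpression). With 3 libraries a group and weakly counted members such as MRPL38, MRPL46 and MRPL53, small changes in single genes were not detectable.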
